A study of Mus musculus with 54 samples.

Results

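Binding of the transcription factor TFE3 in mouse liver on normal chow was compared between LiFKO mice, in which hepatocytes had lost Flcn, and Control mice. The comparison rests on a pair of deposited lists of binding sites (peaks), 26445 peaks from LiFKO livers and 11385 from Control livers, or 37830 regions in all. The underlying chromatin immunoprecipitation sequencing (ChIP-seq) made up 12 of the 54 libraries of the series. A peak was taken as shared when it overlapped a peak of the other list by at least 1 bp, and as LiFKO-only or Control-only otherwise.

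All mice carried Flcn lox/lox alleles. LiFKO mice received AAV8-TBG-Cre and Control mice AAV8-TBG-GFP, each at 1.5e11 genome copies (GC) in the chow and AMLN mice. Other LiFKO and Control mice, on the FPC diet (fructose, palmitate and cholesterol) for 9 days, received 2.5e11 GC. Their TFE3 lists, from 3 LiFKO and 3 Control ChIP libraries, are set beside the chow lists below. TBG is a hepatocyte promoter carried by the virus, so other liver cells should keep the intact gene. A further group, Tfe3KO, was Flcn lox/lox;Tfe3-/Y with AAV8-TBG-GFP. Its Tfe3 loss is body-wide, and it served as the background of the ChIP. TFE3 ChIP gave 4 LiFKO, 2 Tfe3KO and 4 Control libraries, with 1 input library each for LiFKO and Control, from mice fed ad libitum and killed at least a week after the injection. RNA-seq libraries came from other mice, kept 17 to 18.5 weeks on their diet and fasted 4 to 6 h: 3 chow LiFKO and 3 chow Control libraries, and 3 DKO (Flcn lox/lox;Tfe3-/Y with AAV8-TBG-Cre) and 3 LiFKO libraries on the AMLN diet, which is rich in fat, fructose and cholesterol. The RNA fit also took in 3 AMLN Control libraries, which were compared with no group here and only added to the shared estimate of spread. The labels give no age for these mice. Whether libraries stand for separate mice is not labelled, so the p-values below measure the spread between libraries, which may be technical. The Tfe3-/Y allele of DKO mice is carried in the whole animal, and line and genotype cannot be told apart.

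TFE3 is a basic helix-loop-helix factor of the MiT-TFE family, with TFEB, MITF and TFEC. Its dimers recognise E-box motifs such as CACGTG and activate genes of lysosomes, autophagy and energy metabolism. Folliculin, the product of Flcn, works with its partners FNIP1 and FNIP2 to activate RagC and RagD, small GTPases that bring TFE3 to mTORC1 at the lysosome, where it is phosphorylated and kept in the cytoplasm.

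The promoters below belong to genes with a LiFKO-list peak within 400 bp of the gene start, and they are shown because they hold the E-box letters CACGTG, which are in capitals. Each line gives 250 bases before the start and 30 after it from RefSeq, build GRCm38.p6, on the plus strand, 5′ to 3′. The peaks were placed on build mm9, whose genome was not used here, so the windows are those of the genes and not of the peaks themselves.
Napa, chr7:16098330-16098609: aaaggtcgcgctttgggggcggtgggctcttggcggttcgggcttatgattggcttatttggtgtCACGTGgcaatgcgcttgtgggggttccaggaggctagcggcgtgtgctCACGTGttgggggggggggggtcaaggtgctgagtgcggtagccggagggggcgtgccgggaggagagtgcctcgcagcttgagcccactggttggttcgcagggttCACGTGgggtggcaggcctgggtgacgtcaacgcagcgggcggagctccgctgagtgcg
Mcoln1, chr8:3500269-3500548: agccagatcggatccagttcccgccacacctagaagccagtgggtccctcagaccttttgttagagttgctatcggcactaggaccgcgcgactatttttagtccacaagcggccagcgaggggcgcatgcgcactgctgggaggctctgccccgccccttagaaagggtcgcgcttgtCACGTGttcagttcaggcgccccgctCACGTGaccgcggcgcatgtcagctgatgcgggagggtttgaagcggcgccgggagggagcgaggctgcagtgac
Clcn7, chr17:25133141-25133420: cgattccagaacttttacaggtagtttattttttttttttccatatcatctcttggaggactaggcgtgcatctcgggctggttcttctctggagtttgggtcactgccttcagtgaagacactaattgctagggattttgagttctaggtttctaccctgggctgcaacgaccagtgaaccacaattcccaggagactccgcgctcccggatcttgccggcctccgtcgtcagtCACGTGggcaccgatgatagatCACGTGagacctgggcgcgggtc
Fnip1, chr11:54437929-54438208: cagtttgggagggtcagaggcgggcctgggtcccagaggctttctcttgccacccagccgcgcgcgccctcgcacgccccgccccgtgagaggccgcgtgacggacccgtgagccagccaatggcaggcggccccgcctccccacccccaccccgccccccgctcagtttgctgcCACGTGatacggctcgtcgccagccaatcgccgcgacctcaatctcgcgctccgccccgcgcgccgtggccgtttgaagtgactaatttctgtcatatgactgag
Rragc, chr4:123917183-123917462: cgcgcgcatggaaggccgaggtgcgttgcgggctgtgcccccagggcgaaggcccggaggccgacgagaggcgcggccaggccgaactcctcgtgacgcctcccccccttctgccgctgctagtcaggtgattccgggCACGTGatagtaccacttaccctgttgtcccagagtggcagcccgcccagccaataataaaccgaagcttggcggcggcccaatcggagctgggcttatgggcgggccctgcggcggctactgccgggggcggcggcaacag
Ctsa, chr2:164833523-164833802: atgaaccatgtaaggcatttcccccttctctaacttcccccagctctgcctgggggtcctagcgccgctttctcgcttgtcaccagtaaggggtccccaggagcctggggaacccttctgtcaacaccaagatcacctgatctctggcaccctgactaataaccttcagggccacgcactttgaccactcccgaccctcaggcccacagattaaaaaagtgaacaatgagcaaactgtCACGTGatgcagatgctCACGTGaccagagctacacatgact
CACGTG, which reads the same on both strands, stood 3 times in the window of Napa, 2 times each in those of Mcoln1, Clcn7 and Ctsa, and 1 time each in those of Fnip1 and Rragc. The window of Ctsa is that of an alternative RefSeq start, 901 bp from the first, whose own window held the letters 0 times, and the peak within 400 bp is measured from the gene start. Of the 123 genes named by the rules used here, 50 had a LiFKO-list peak within 400 bp of the start and a RefSeq window, and 11 of these (22.0%) held CACGTG in at least 1 full window of 300 bases. Among all 27025 genes of the RefSeq table, 8.09% did. The windows of Tsc1, Flcn and Fnip2, whose starts also lay at peaks, did not hold these letters. The variant TCATGTG, searched on both strands and counted apart from CACGTG even where both share letters, was in the windows of 4.31% of all genes, and in those of 6 of the 50 genes (12%), namely Acacb, Brd2, Clcn7, Ctsa, Ppargc1a and Tpp1.

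The LiFKO list was the longer one and took in most of the Control list. The 9372 shared peaks were 35.4% of the LiFKO list and 82.3% of the Control list, which left 17073 LiFKO-only and 2013 Control-only peaks. Each list had been called by the authors on 4 pooled ChIP libraries, so there are no replicates of the lists and no test of these counts. The depth of the pools is not given in the sources used here, and its part in the lengths of the lists was not tested. With both lists held at 11385 peaks by keeping the best-scoring LiFKO peaks, 6932 peaks were shared and 4453 were left over in each list.

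Sharing rose with the authors' peak score, which is used here only to rank peaks within a list. Where scores of both lists are given for a site, they are not known to share a scale. A difference in strength of binding was not tested. In the LiFKO list the median score was 14.8 for LiFKO-only and 28.4 for shared peaks. In the Control list it was 9.22 for Control-only and 16.2 for shared peaks. When each list was divided by score into 10 groups of near-equal size, 88.7% of the highest LiFKO group and 8.17% of the lowest were shared. In the Control list 95.7% of the highest group and 39.9% of the lowest were shared. By rank within its own list, the median LiFKO-only peak stood at percentile 36.3 and the median Control-only peak at percentile 19.9.

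**Figure D1:**
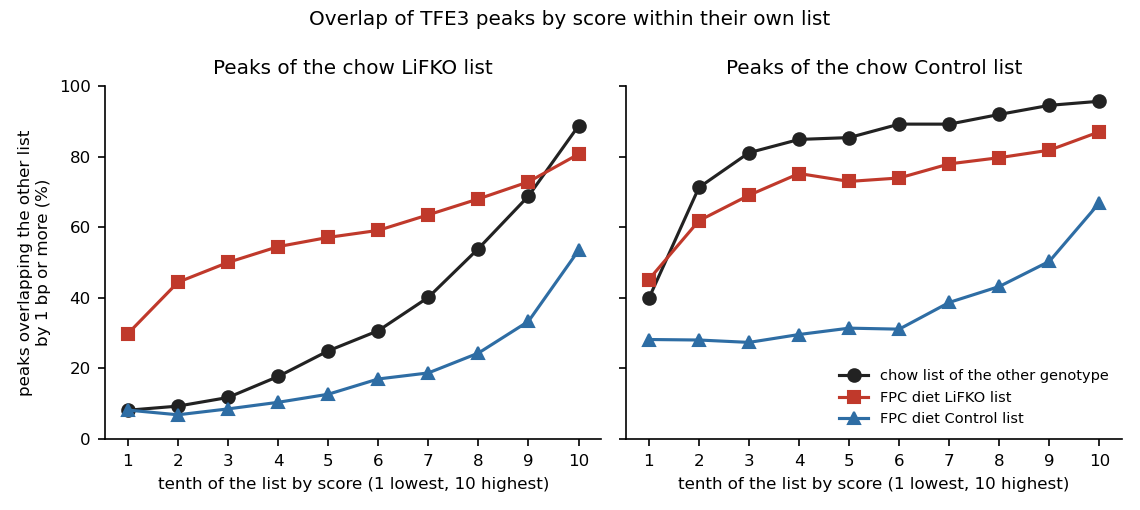
Share of peaks that overlapped another list by 1 bp or more (y axis, %) in 10 groups of each chow list by score (x axis, 1 lowest), for the chow LiFKO list (left) and the chow Control list (right). Black circles stand for the chow list of the other genotype, red squares for the LiFKO list on the FPC diet and blue triangles for the Control list on that diet; in the LiFKO list, sharing with the Control list ran between 8.17% and 88.7%.

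Many Control-only peaks lay beside a LiFKO peak. Centres were within 500 bp of a peak of the other list for 3.20% of LiFKO-only peaks (547) and for 22.95% of Control-only peaks (462). More than 5 kb separated 87.9% of LiFKO-only peaks and 54.9% of Control-only peaks from any peak of the other list. Several of the best-scoring list-specific peaks were such pairs. The Control-only peak of highest score, 62.2, lay 103 bp from Smarca4, which encodes an ATPase of SWI/SNF chromatin remodelling, and a LiFKO-list peak lay 269 bp from it. The next, near Glyr1 with a score of 60.5, had a LiFKO-list peak 234 bp away. At Sqstm1, which encodes the autophagy receptor p62, the LiFKO-only peak of score 83.8 and the Control-only peak of score 39.8 had centres 271 bp apart. Of the 5 best LiFKO-only peaks, those at Dennd3 (score 82.8) and near Nupr1 (score 70.7) had their nearest Control peak 44799 and 44426 bp away, while those near Smad6, in Mgat4b and at Safb2 had one within 385 bp. The peak of score 83.8 lies inside Mgat4b and 2220 bp before the start of Sqstm1.

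The same site headed both lists. The peak of highest score in each list lay beside Tsc1, a subunit of the complex that restrains mTORC1, at chr2:28496540-28496726 (mm9) in the LiFKO list and with its centre 6 bp from there in the Control list, with scores of 245.8 in the LiFKO list and 156.3 in the Control list. The shared peaks that followed by LiFKO score were in the predicted gene Gm2990 (192.5), in Ppp1r10 (190.1), a regulator of protein phosphatase 1, in Unk (159.4), which encodes an RNA-binding protein, and near Napa (151.6), a factor of vesicle fusion whose promoter is printed above.

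Peaks of every class lay mostly in or near genes. Of LiFKO-only peaks 51.4% had their centre inside a gene of the RNA table, against 50.8% of shared and 49.1% of Control-only peaks. Gene bodies or the 5 kb around them held 64.5% of LiFKO-only, 69.2% of shared and 66.2% of Control-only peaks. Within 1 kb of an end of a gene lay 23.8% of LiFKO-only peaks, against 29.4% of shared and 24.8% of Control-only peaks. More than 50 kb from any such gene lay 15.9% of LiFKO-only, 11.6% of shared and 14.3% of Control-only peaks. Score and position moved together: within 1 kb of a gene end lay 41.3% of the highest of the 10 LiFKO score groups and 6.16% of the lowest. The gene table gives no strand, and only 69.98% of its genes could be given one from RefSeq, so a check of distances to gene starts over all genes is void, and offsets from starts are given for single genes only.

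**Figure D2:**
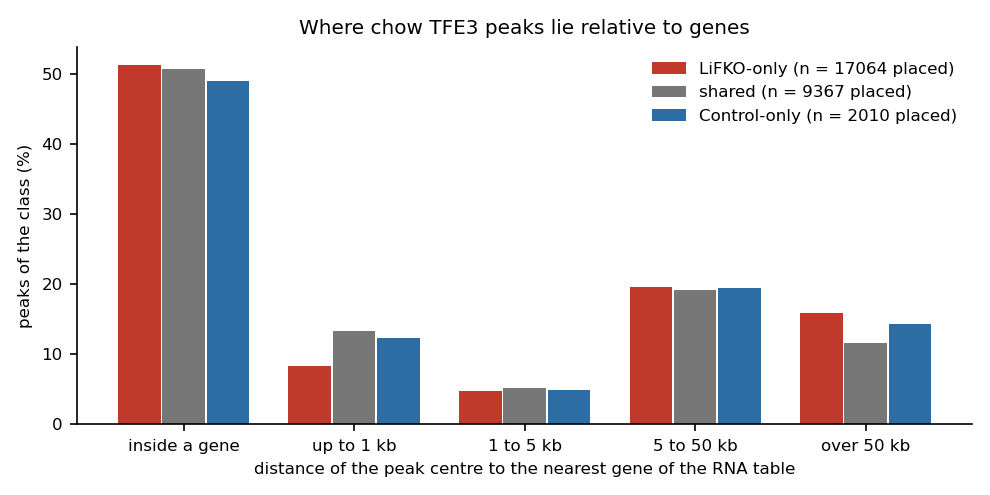
Share of each class of peak (y axis, %) by the distance of its centre to the nearest gene of the RNA table (x axis). Bars are LiFKO-only (red), shared (grey) and Control-only (blue) peaks; peaks just outside genes, up to 1 kb away, made up 8.33% of LiFKO-only, 13.3% of shared and 12.3% of Control-only peaks.

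Lists from other mice, on the FPC diet (fructose, palmitate and cholesterol, 9 days), held a large part of these sites. Of LiFKO-only chow peaks 48.5% overlapped the FPC LiFKO list and 9.61% the FPC Control list. Shared chow peaks did so in 75.5% and 37.2%, and Control-only chow peaks in 51.2% and 35.8%. Seen from the FPC side, 55.3% of the 27751 FPC LiFKO peaks overlapped the chow LiFKO list and 29.7% the chow Control list. The file headers of the FPC lists name a library called input among the pooled ChIP libraries and a library called TFE3 among the backgrounds, which puts the identity of these pools in doubt. The FPC mice, 3 LiFKO and 3 Control ChIP libraries with 1 Tfe3KO one, had received 2.5e11 GC of virus, against 1.5e11 GC in the chow mice. Their reads were also processed with other program versions.

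Genes were next grouped by the chow lists with a peak in the gene or within 5 kb of it. Of the 13815 genes measured, 5692 (41.2%) had a peak in both lists, 3857 (27.9%) in the LiFKO list alone, 210 (1.52%) in the Control list alone and 4056 (29.4%) in neither. Genes with a peak in both lists were longer, with a median of 27010 bp, than those with a peak in the LiFKO list alone (20879 bp) and those with none (9655 bp), and the part of length in the classes was not tested.

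Genes with peaks in both lists rose most often in chow LiFKO livers. With limma, at a Benjamini-Hochberg adjusted p under 0.05 over all genes, 12.5% of all genes (1723) rose and 13.2% (1822) fell in chow LiFKO against chow Control livers. The share that rose was 17.2% of genes with a peak in both lists, 11.3% with a peak in the LiFKO list alone, 6.19% with a peak in the Control list alone and 7.30% with no peak. The order of the last pair depended on the setting: genes with a peak in the Control list alone and genes with no peak rose in 4.60% and 6.91% with a 20 kb window, 8.30% and 7.68% with 1 kb, 8.57% and 7.52% with the nearest gene of each peak, 10.3% and 8.45% with lists of equal length, and 15.1% and 9.83% within 1 kb of a gene end. In that last setting 12.5% of genes with a peak in the LiFKO list alone rose. The share that fell was 13.9%, 15.1%, 10.5% and 10.5% in the 4 classes. Genes with a peak in both lists kept a share of rises between 14.5% and 15.003% when any 1 chow library was left out, those with a peak in the LiFKO list alone 8.87% to 9.93%, and those without a peak 5.10% to 6.16%. The share that fell among genes without a peak was 6.98% without Control replicate 1 and 6.88% without Control replicate 2. Among the 210 genes with a peak in the Control list alone it was 5.24% without Control replicate 1 or 2 and 6.19% without LiFKO replicate 3.

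The score of the best peak separated genes further. Genes with a LiFKO-list peak were divided into 5 groups of about equal size by their best score. From the lowest group to the highest, 10.7%, 11.6%, 12.9%, 15.2% and 23.6% rose on chow, and the share that fell was 14.8% in the lowest group and 10.8% in the highest. Median gene length differed little between these groups, from 22401 to 26420 bp. By number of LiFKO-list peaks, 7.24% of genes with none, 12.2% with 1, 16.2% with 2, 17.0% with 3 and 19.2% with 4 or more rose, while the median gene length rose over these groups, to 98141 bp in the last.

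The libraries labelled DKO gave a second reading of the same genes, in other animals and on the AMLN diet. Against AMLN LiFKO livers, 5.97% of all genes (825) fell and 5.05% (698) rose in the DKO libraries. Falls made up 9.43% of genes with a peak in both lists, 4.69% with a peak in the LiFKO list alone, 2.86% with a peak in the Control list alone and 2.49% with no peak. With a peak in the Control list alone the share was 4.49% with the nearest gene of each peak and 6.39% within 1 kb of a gene end, where genes with no peak fell in 3.99%. In the 5 score groups, from lowest to highest, 3.77%, 4.82%, 6.18%, 7.33% and 15.5% fell. The share that rose in DKO was nearer to even, with 5.48%, 5.50%, 5.71% and 3.99% in the 4 classes. Of the 980 genes that rose on chow with a peak in both lists, 399 (40.7%) fell in DKO, as did 138 of 434 (31.8%) with a peak in the LiFKO list alone and 74 of 296 (25%) with no peak. Across all genes 616 of 1723 (35.8%) did so and 6 rose in both comparisons. Without AMLN LiFKO replicate 1 the share of falls with a peak in the LiFKO list alone was 3.11%, and without DKO replicate 3 or AMLN LiFKO replicate 3 that of genes with no peak was 1.63%. Among the 210 genes with a peak in the Control list alone it was 0.952% without AMLN LiFKO replicate 2 or 3. The share that rose was lowest without DKO replicate 2, at 3.09%, 2.85%, 1.90% and 2.19% of the 4 classes, or without AMLN LiFKO replicate 3, at 3.37%, 3.24%, 2.38% and 2.14%. Without AMLN LiFKO replicate 1 it was 3.66% with a peak in the LiFKO list alone, 3.81% in the Control list alone and 2.59% with no peak. Without DKO replicate 3 it was 3.81% with a peak in the Control list alone and 2.56% with no peak, and in the Control-list class it was 2.86% without DKO replicate 1 and 3.81% without AMLN LiFKO replicate 2.

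**Figure D3:**
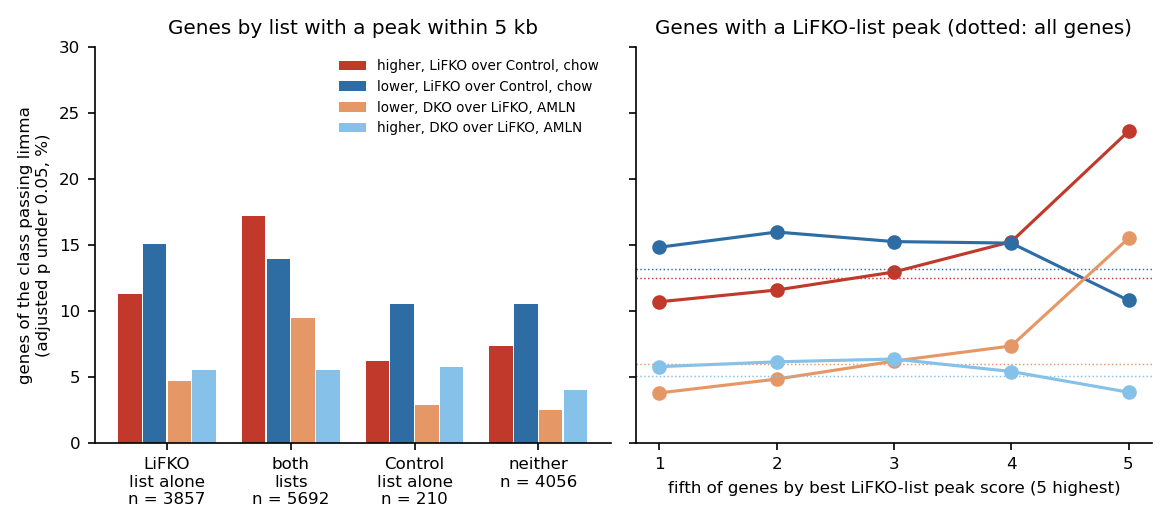
Share of genes passing limma (adjusted p under 0.05, y axis, %) by the chow lists with a peak within 5 kb (left, bars) and, among genes with a LiFKO-list peak, by score of the best peak (right, points, group 5 highest). Red and dark blue are genes higher and lower in chow LiFKO over Control, orange and light blue genes lower and higher in AMLN DKO over LiFKO, and dotted lines give all 13815 genes; the share higher on chow is 23.6% in group 5.

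Flcn itself lay under a strong peak in both lists. Its log2 level was 10.55, 10.14 and 10.53 in chow LiFKO libraries, against 11.33, 11.55 and 11.44 in Control libraries, a log2 fold change of -1.03 (SE 0.17, limma adjusted p = 0.00039). The groups did not overlap. Groups did not overlap for 41.9% of all genes on chow and for 28.7% in DKO against AMLN LiFKO, so this is common. The peak at the start of Flcn, 70 bp inside the gene at chr11:59623355-59623541 (mm9), scored 85.2 in the LiFKO list, at percentile 99.6, and 52.8 in the Control list, at percentile 99.0. Tfe3 had no peak within 5 kb, and the nearest LiFKO-list peak was 14624 bp away. Its level was 10.20, 9.88 and 9.89 in the libraries labelled DKO, against 9.92, 10.02 and 10.07 in AMLN LiFKO libraries, groups that overlapped (log2 fold change -0.01, SE 0.12, adjusted p = 0.97), so Tfe3 RNA did not set these libraries apart. Which part of Tfe3 is deleted is not given in the sources used here, this level does not check the label, and DKO means the libraries labelled so throughout.

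The partners of folliculin carried shared peaks at their starts, and they were higher in LiFKO livers and lower in DKO livers. Fnip2 had 6 peaks in each list within 5 kb. The shared peak 180 bp before its start scored 69.2 in the LiFKO list (percentile 98.9) and 62.1 in the Control list (percentile 99.5). Fnip2 RNA stood at 13.00, 12.95 and 13.45 on the log2 scale in chow LiFKO, against 11.86, 11.94 and 11.91 in Control libraries, with no overlap (log2 fold change 1.23, SE 0.18, limma adjusted p = 0.00022). In DKO it was 11.67, 12.08 and 12.05, against 14.09, 13.38 and 14.13 in AMLN LiFKO libraries, again with no overlap (-1.94, SE 0.18, adjusted p = 1.6e-05).

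Fnip1, whose promoter holds 1 CACGTG, had start peaks of 67.7 in the LiFKO list (percentile 98.8) and 48.7 in the Control list (percentile 98.6). Its RNA rose by 0.68 on the log2 scale on chow (SE 0.14, limma adjusted p = 0.0020) and its DKO difference was -0.86 (SE 0.14, adjusted p = 0.0010). Rragc, the gene of RagC, had peaks of both lists just before its start, which overlapped only at their edges, with centres 172 bp apart. The LiFKO-list peak, 288 bp before the start, scored 73.3 (percentile 99.2). The Control-list peak, 116 bp before it, scored 67.2 (percentile 99.7). Rragc also had a LiFKO-only peak of 47.6 at 4778 bp before the start. Its chow difference was 0.74 (SE 0.10, adjusted p = 0.00012) and its DKO difference -0.89 (SE 0.10, adjusted p = 7.0e-05). For each of these genes the groups did not overlap in either comparison, beside 41.9% of all genes on chow and 28.7% in DKO. Tsc1, beside the strongest peak of both lists, had RNA differences of 0.76 (SE 0.11, adjusted p = 0.00022) on chow and -1.07 (SE 0.11, adjusted p = 3.5e-05) in DKO.

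Rragd, the gene of RagD, differed from its paralog Rragc in its peaks. Its single peak within 5 kb lay 433 bp inside the gene, at chr4:33070352-33070538 (mm9), was LiFKO-only and of middle rank (score 25.3, percentile 70.3), and the nearest Control peak was 205627 bp away. The log2 level of Rragd was 12.89, 12.73 and 12.99 in chow LiFKO, against 7.53, 7.64 and 7.76 in Control libraries. The groups did not overlap (log2 fold change 5.23, SE 0.23, limma adjusted p = 4.4e-09). In DKO libraries it was 9.16, 8.14 and 8.12, against 12.89, 12.69 and 12.96 in AMLN LiFKO libraries (-4.37, SE 0.23, adjusted p = 6.9e-08).

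Of the 30 measured genes in the list of the folliculin, Rag and mTORC1 circuit, 26 had a LiFKO-list peak within 5 kb (17 of them also a Control-list peak), where 69.1% of all genes did. In chow LiFKO livers 7 (23.3%) rose and 2 (6.67%) fell, beside 12.5% and 13.2% of all genes. The median log2 fold change was 0.01, beside -0.05 over all genes. In DKO 7 (23.3%) fell and none rose, beside 5.97% and 5.05% of all genes, with 1 rise at an unadjusted p under 0.05. The falls on chow were 4 without Control replicate 3, and 1 gene rose in DKO without DKO replicate 3. The other family members were not called on chow. Tfeb had 4 LiFKO-list and 3 Control-list peaks and a log2 difference of -0.31 (SE 0.13, limma adjusted p = 0.10), Mitf had 2 LiFKO-only peaks and a difference of -0.24 (SE 0.32, adjusted p = 0.63), and Tfec had 1 Control-only peak and a difference of 0.12 (SE 0.29, adjusted p = 0.81).

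Lysosomal genes combined frequent peaks with frequent rises. Among 48 measured hydrolases and cofactors, the enzymes that digest material inside lysosomes, 34 had a peak in both lists and 7 in the LiFKO list alone. Within 1 kb of a gene end 37 of the 48 had a LiFKO-list and 29 a Control-list peak, beside 48.8% and 25.2% of all genes. On chow 32 (66.7%) rose and 2 (4.17%) fell (median log2 fold change 0.66), beside 12.5% and 13.2% of all genes. In DKO 30 (62.5%) fell and 2 (4.17%) rose, beside 5.97% and 5.05% of all genes. The median in DKO was -0.54, beside 0.02 over all genes. The 2 falls on chow were not called without Control replicate 1, LiFKO replicate 1 or LiFKO replicate 3, and 1 was called without Control replicate 3. The rises in DKO were 0 without DKO replicate 2 and 1 without any other DKO or AMLN LiFKO library. Of the 47 genes of lysosomal membrane proteins and the V-ATPase, the proton pump that acidifies the lysosome, 35 had a peak in both lists and 10 in the LiFKO list alone. A LiFKO-list peak was near 95.7% of them, beside 69.1% of all genes. On chow 29 (61.7%) rose and 3 (6.38%) fell, beside 12.5% and 13.2% of all genes. In DKO 27 (57.4%) fell and none rose, beside 5.97% and 5.05% of all genes, and limma gave 1 rise at an unadjusted p under 0.05.

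Mcoln1 encodes a calcium channel of the lysosomal membrane, and it had shared peaks at its start (53.4 in the LiFKO list, 38.1 in the Control list) and past its end (49.0 and 29.6). Its log2 level was 12.36, 12.23 and 12.30 in chow LiFKO, against 11.23, 11.09 and 11.08 in Control libraries, and 10.83, 11.02 and 11.20 in DKO, against 12.09, 12.15 and 12.14 in AMLN LiFKO libraries. The groups did not overlap in either comparison (1.16, SE 0.09, limma adjusted p = 6.0e-07, and -1.11, SE 0.09, adjusted p = 3.9e-06). Clcn7, a lysosomal chloride transporter, had 1 shared peak with scores of 64.4 and 34.8 in the LiFKO and the Control list, 89 bp inside the gene. It differed by 1.12 on chow (SE 0.08, adjusted p = 2.9e-07) and by -0.88 in DKO (SE 0.08, adjusted p = 9.75e-06).

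Ctsa, the protective protein cathepsin A, showed both kinds of peak, a LiFKO-only one of score 28.6 at 148 bp and a shared one of 69.2 at 774 bp inside the gene. Its RNA was higher on chow by 1.49 (SE 0.09, limma adjusted p = 9.2e-08) and its DKO difference was -1.26 (SE 0.09, adjusted p = 1.7e-06). Cln6, a protein of the endoplasmic reticulum needed for lysosome function, had a shared peak and 2 further list-specific peaks. The shared one scored 81.0 in the LiFKO list (percentile 99.5) and 24.9 in the Control list (percentile 83.2). Cln6 RNA measured 11.97, 12.06 and 12.28 on the log2 scale in chow LiFKO libraries, against 8.38, 9.34 and 8.84 in Control libraries (3.25, SE 0.22, adjusted p = 2.2e-07). The groups did not overlap. Ctsz and Tpp1, which encode hydrolases, had shared peaks too and rose by log2 fold changes of 1.91 and 1.25.

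Autophagy genes mostly had peaks, and their RNA changed in both directions. Of 41 measured genes 30 had a peak in both lists and 9 in the LiFKO list alone. A LiFKO-list peak was near 95.1% of them, beside 69.1% of all genes. On chow 13 (31.7%) rose and 7 (17.1%) fell (median 0.02), beside 12.5% and 13.2% of all genes. In DKO 11 (26.8%) fell and 3 (7.32%) rose, beside 5.97% and 5.05% of all genes. Without DKO replicate 2 none rose in DKO, and 1 did without any 1 AMLN LiFKO replicate. Gabarap and Map1lc3b, members of the ubiquitin-like family that coats autophagosomes, had shared start peaks of 82.8 and 30.3 in the LiFKO list and of 51.7 and 21.8 in the Control list. Gabarap differed by 0.57 on chow (SE 0.07, limma adjusted p = 3.4e-05) and Map1lc3b by 0.51 (SE 0.07, adjusted p = 0.00010). Sqstm1, with its strong peaks in both lists 271 bp apart, had log2 levels of 14.70, 14.79 and 14.66 in LiFKO and 14.42, 14.57 and 14.55 in Control libraries, and did not pass the test (0.21, SE 0.11, adjusted p = 0.20), although the groups did not overlap, as was so for 41.9% of all genes.

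**Figure D4:**
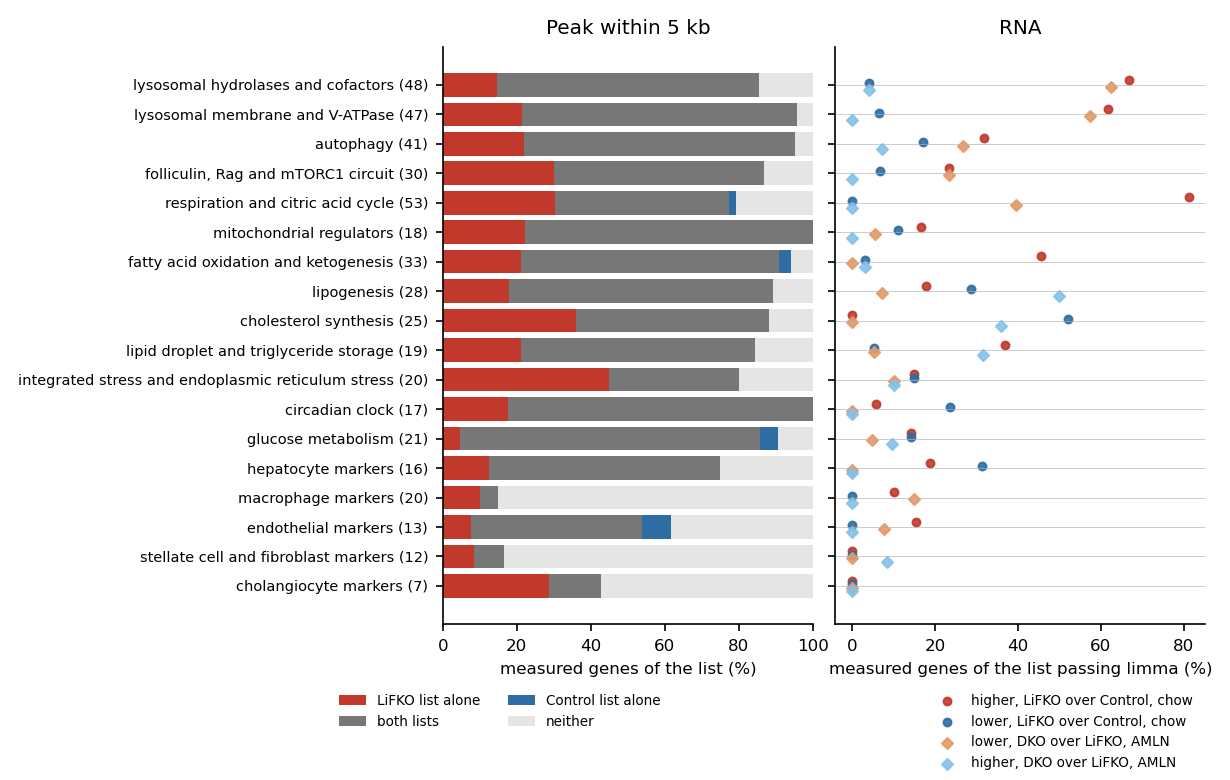
Gene lists (rows, measured genes in brackets) by the share of their genes with a chow peak within 5 kb (left, x axis in %; red LiFKO list alone, grey both lists, blue Control list alone, pale neither) and by the share passing limma (right, x axis in %). Circles are chow LiFKO over Control, diamonds AMLN DKO over LiFKO; the lysosomal lists have the highest shares lower in DKO, 62.5% and 57.4%, and respiration the highest share higher on chow, 81.1%.

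Most genes of mitochondrial respiration and the citric acid cycle rose on chow, with and without a peak. Of 53 measured genes 25 had a peak in both lists, 16 in the LiFKO list alone, 1 in the Control list alone and 11 in neither. A LiFKO-list peak was near 77.4% of them, beside 69.1% of all genes. On chow 43 (81.1%) rose and none fell, beside 12.5% and 13.2% of all genes, with a median of 0.51. Of the 11 without a peak, 8 were among those that rose. No fall on chow and no rise in DKO reached an unadjusted p under 0.05 either (0 each). In DKO 21 (39.6%) fell, beside 5.97% of all genes. Falls numbered 13 without DKO replicate 1, 12 without DKO replicate 3, 11 without AMLN LiFKO replicate 1 and 12 without AMLN LiFKO replicate 3. Atp5a1, a subunit of ATP synthase with a shared peak (86.0 in the LiFKO list, 41.8 in the Control list), differed by 1.00 on chow (SE 0.10, limma adjusted p = 8.2e-06).

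Ppargc1a, a coactivator that drives mitochondrial genes, gathered 7 LiFKO-list peaks within 5 kb, 5 of them LiFKO-only, against 2 Control-list peaks. The strongest, 30215 bp inside the gene, was shared, with scores of 40.0 and 13.2 in the LiFKO and the Control list, while the LiFKO-only one near the start scored 4.18, at percentile 1.62. Ppargc1a RNA measured 11.74, 12.26 and 11.64 on the log2 scale in chow LiFKO, against 9.47, 10.18 and 9.32 in Control libraries (2.23, SE 0.23, limma adjusted p = 8.5e-06). In DKO it was 9.95, 10.18 and 10.67, against 11.18, 11.36 and 11.18 in AMLN LiFKO libraries (-0.97, SE 0.23, adjusted p = 0.013), and without DKO replicate 1 the call was lost (-0.81, adjusted p = 0.053). Of 18 listed mitochondrial regulators all had a LiFKO-list peak, beside 69.1% of all genes. On chow 3 (16.7%) rose and 2 (11.1%) fell, beside 12.5% and 13.2% of all genes. The falls were 1 without Control replicate 1 or 2 and 0 without LiFKO replicate 1 or 3.

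Part of the fatty acid oxidation genes rose on chow, and 1 was called in DKO. Of 33 measured genes 23 had a peak in both lists and 7 in the LiFKO list alone. A LiFKO-list peak was near 90.9% of them, beside 69.1% of all genes. On chow 15 (45.5%) rose and 1 (3.03%) fell (median 0.41), beside 12.5% and 13.2% of all genes. In DKO 1 (3.03%) rose and none fell, beside 5.05% and 5.97% of all genes. At an unadjusted limma p under 0.05, 7 rose and 2 fell in DKO. The median of the list in DKO was 0.09, beside 0.02 over all genes. The fall on chow was not called without Control replicate 2, Control replicate 3 or LiFKO replicate 3, and 1 gene fell in DKO without DKO replicate 1. Hadha, a subunit of the mitochondrial trifunctional protein, had a LiFKO-only peak of 44.1 at 44 bp inside the gene and log2 levels of 15.34, 15.38 and 15.43 in chow LiFKO, against 14.71, 14.78 and 14.80 in Control libraries. These groups did not overlap (0.62, SE 0.09, limma adjusted p = 0.00014). Its DKO difference was -0.24 (SE 0.09, adjusted p = 0.093). Acads, a short-chain acyl-CoA dehydrogenase, had a LiFKO-only peak of 20.9 and differed by 0.69 on chow (SE 0.10, adjusted p = 0.00020) and by -0.05 in DKO (SE 0.10, adjusted p = 0.81). Cd36, a fatty acid uptake receptor with 5 peaks, all LiFKO-only, differed by 2.89 on chow (SE 0.27, adjusted p = 4.3e-06) and by -0.51 in DKO (SE 0.27, adjusted p = 0.27).

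Acacb, whose product makes the malonyl-CoA that curbs fatty acid import into mitochondria, had 3 LiFKO-list and 4 Control-list peaks. Its strongest, 33109 bp inside the gene, was shared, with 75.8 in the LiFKO list (percentile 99.3) and 20.5 in the Control list (percentile 71.8). Acacb RNA measured 14.93, 14.86 and 14.78 on the log2 scale in chow LiFKO, against 11.17, 10.38 and 10.996 in Control libraries, and 13.32, 13.16 and 13.17 in DKO, against 14.50, 14.23 and 14.86 in AMLN LiFKO libraries. The differences were 4.01 on chow (SE 0.17, limma adjusted p = 4.4e-09) and -1.31 in DKO (SE 0.17, adjusted p = 0.00024), with no overlap of groups in either.

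Genes of lipid synthesis also lay near peaks, and their RNA changed in both directions. Of 28 measured lipogenic genes 20 had a peak in both lists and 5 in the LiFKO list alone. A LiFKO-list peak was near 89.3% of them, beside 69.1% of all genes. On chow 5 (17.9%) rose and 8 (28.6%) fell, beside 12.5% and 13.2% of all genes. Rises were 3 without Control replicate 1, LiFKO replicate 2 or LiFKO replicate 3. In DKO 14 (50%) rose and 2 (7.14%) fell, beside 5.05% and 5.97% of all genes. Rises were 8 without DKO replicate 2 and 9 without AMLN LiFKO replicate 2. Srebf1, which encodes the activator of fatty acid synthesis genes SREBP-1, had LiFKO-only and Control-only peaks 204 bp apart just before its start and a shared peak inside it. It was lower on chow by a log2 fold change of -0.63 (SE 0.18, limma adjusted p = 0.021), a call lost without Control replicate 1 (-0.37, adjusted p = 0.092), LiFKO replicate 1 (-0.59, adjusted p = 0.065) or LiFKO replicate 2 (-0.55, adjusted p = 0.079), and higher in DKO by 1.19 (SE 0.18, adjusted p = 0.00084).

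Fasn, the fatty acid synthase, had a shared peak 326 bp before its start, with scores of 41.2 and 25.3 in the LiFKO and the Control list. Fasn RNA stood at 11.81, 12.17 and 12.78 on the log2 scale in chow LiFKO, against 13.58, 12.68 and 13.34 in Control libraries, and the groups overlapped. The difference was -0.95 (SE 0.24, limma adjusted p = 0.010), and it was -0.76 without Control replicate 1 (adjusted p = 0.053) and -0.73 without LiFKO replicate 1 (adjusted p = 0.053). In DKO Fasn was higher by 1.43 (SE 0.24, adjusted p = 0.0016).

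Of 25 measured genes of cholesterol synthesis, 13 had a peak in both lists and 9 in the LiFKO list alone. A LiFKO-list peak was near 88% of them, beside 69.1% of all genes. Yet 13 (52%) fell and none rose on chow (median -0.60), beside 13.2% and 12.5% of all genes. No rise on chow and no fall in DKO reached an unadjusted p under 0.05 (0 each). In DKO 9 (36%) rose, beside 5.05% of all genes. Rises were 4 without DKO replicate 1 and 2 without DKO replicate 2. They were 5 without AMLN LiFKO replicate 1, 4 without AMLN LiFKO replicate 2 and 2 without AMLN LiFKO replicate 3. Cyp51, which demethylates lanosterol, had a shared peak of 41.4 in the LiFKO list and 28.4 in the Control list near its start. Cyp51 RNA measured 9.70, 9.39 and 10.92 on the log2 scale in chow LiFKO, against 12.22, 12.01 and 12.79 in Control libraries, with no overlap (-2.34, SE 0.36, limma adjusted p = 0.00025). Stard4, a carrier of cholesterol, also had 1 shared peak and differed by -1.81 on chow (SE 0.19, adjusted p = 1.1e-05) and by 1.49 in DKO (SE 0.19, adjusted p = 0.00016).

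Some of the largest rises and falls went with weak or middle-ranked LiFKO-only peaks. Acot3, with peaks of 18.4 and 7.99, differed by -3.13 on chow (SE 0.77, limma adjusted p = 0.0078) and by 1.65 in DKO (SE 0.77, adjusted p = 0.20). Acnat1, with a peak of 14.5, differed by -2.14 on chow (SE 0.16, adjusted p = 4.3e-07) and by 1.03 in DKO (SE 0.16, adjusted p = 0.00080). Among genes with a peak in the LiFKO list alone, 582 fell and 434 rose on chow. Mmp27, a matrix metalloproteinase, had a single LiFKO-only peak 56 bp before its start with a score of 14.7, at percentile 35.9. Its log2 level was 14.87, 14.94 and 14.79 in chow LiFKO, against 6.59, 6.64 and 6.33 in Control libraries, and 10.83, 11.02 and 11.30 in DKO, against 14.75, 14.74 and 14.76 in AMLN LiFKO libraries. The groups overlapped in neither comparison, with differences of 8.34 on chow (SE 0.19, limma adjusted p = 1.1e-12) and -3.70 in DKO (SE 0.19, adjusted p = 5.0e-08).

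Cd63, a tetraspanin of late endosomes, had a LiFKO-only peak of 23.6 at 792 bp inside the gene and log2 levels of 12.89, 13.13 and 12.52 in chow LiFKO, against 7.49, 7.64 and 7.64 in Control libraries (5.26, SE 0.31, limma adjusted p = 6.6e-08). Its DKO difference was -3.69 (SE 0.31, adjusted p = 6.0e-06). The pseudogene Cd63-ps differed by 5.02 and -3.53, and near-identical copies can share reads, so the split between them is uncertain. Slc6a8, the creatine transporter, had 3 LiFKO-only peaks that all scored below 8 and differed by 3.26 on chow (SE 0.20, adjusted p = 7.7e-08) and -1.96 in DKO (SE 0.20, adjusted p = 2.4e-05). Dennd3, which holds the LiFKO-only peak of score 82.8 and also a shared one, differed by 1.95 (SE 0.28, adjusted p = 0.00015) and -1.53 (SE 0.28, adjusted p = 0.0026). Apoa4, an apolipoprotein gene with a LiFKO-only peak of 11.9 near its start, differed by 5.67 on chow (SE 0.52, adjusted p = 3.3e-06), and by -1.21 in DKO, which did not pass the test (SE 0.52, adjusted p = 0.16).

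**Figure D5:**
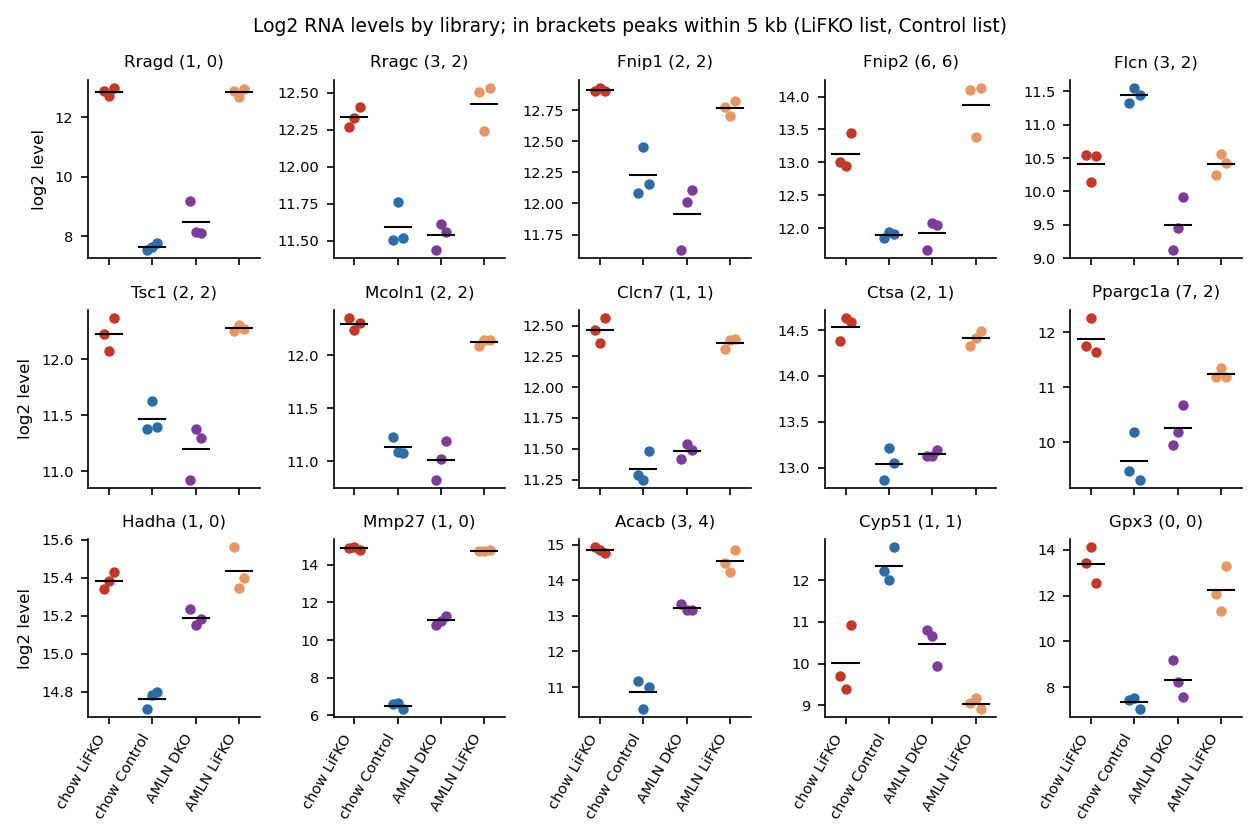
Deposited log2 RNA level (y axis, own scale in each panel) of 15 genes in each library of chow LiFKO (red), chow Control (blue), AMLN DKO (purple) and AMLN LiFKO (orange); points are libraries, n = 3 a group, black lines are means, and brackets give the number of LiFKO-list and Control-list peaks within 5 kb. Rragd sits between 12.73 and 12.99 in chow LiFKO and between 7.53 and 7.76 in chow Control libraries.

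Other genes rose strongly on chow with peaks in both lists or with none. Cyp46a1, which hydroxylates cholesterol, had a shared peak 7667 bp inside the gene (52.1 in the LiFKO list, 13.4 in the Control list) and differed by 5.59 on chow (SE 0.54, limma adjusted p = 5.1e-06) and by -1.29 in DKO (SE 0.54, adjusted p = 0.15). Its DKO difference was called without DKO replicate 3 (-1.85, adjusted p = 0.044) and was -0.48 without DKO replicate 1 (adjusted p = 0.46). Uap1l1 had 2 shared peaks and differed by 4.77 (SE 0.36, adjusted p = 6.0e-07) and -3.60 (SE 0.36, adjusted p = 2.7e-05). The secreted peroxidase gene Gpx3 had no peak within 5 kb, and the nearest LiFKO-list peak was 17359 bp away and shared. Its log2 level was 13.41, 14.12 and 12.56 in chow LiFKO, against 7.46, 7.51 and 7.04 in Control libraries (6.03, SE 0.47, adjusted p = 7.9e-07), and 9.16, 8.203 and 7.57 in DKO, against 12.07, 11.33 and 13.31 in AMLN LiFKO libraries (-3.92, SE 0.47, adjusted p = 0.00010). Gpnmb, a glycoprotein of endolysosomal membranes, had its nearest LiFKO-list peak 26368 bp away and differed by 4.41 on chow (SE 0.68, adjusted p = 0.00029) and by 0.91 in DKO (SE 0.68, adjusted p = 0.45).

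Genes with a peak in the Control list alone were few. The 6 called genes of smallest p among them were Idh3b, Zfp238, Myl12b, Mrpl16, Crlf2 and Cyp4a12b, with Control scores between 3.66 and 17.6. Zfp238, a zinc finger repressor, had a log2 level of 9.66, 9.82 and 10.07 in chow LiFKO, against 10.74, 10.63 and 10.90 in Control libraries (-0.91, SE 0.11, limma adjusted p = 5.3e-05). Idh3b, a subunit of isocitrate dehydrogenase, was higher by 0.68 on chow (SE 0.07, adjusted p = 1.5e-05).

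Markers of other liver cells differed in how many had peaks. A LiFKO-list peak was found within 5 kb of 3 of 20 macrophage, 2 of 12 stellate cell and fibroblast, 3 of 7 cholangiocyte and 7 of 13 endothelial markers, against 12 of 16 hepatocyte markers and 69.1% of all genes. On chow limma called 2 macrophage markers (1 without Control replicate 1, Control replicate 3, LiFKO replicate 1 or LiFKO replicate 2) and 2 endothelial ones, all of them higher in LiFKO. These rises were 10% and 15.4% of the lists, beside 12.5% of all genes. It called 0 stellate and 0 cholangiocyte markers, also at an unadjusted p under 0.05. Of hepatocyte markers 5 (31.25%) fell and 3 (18.75%) rose, beside 13.2% and 12.5% of all genes. The rises were 1 without Control replicate 1, 2 or 3 or LiFKO replicate 2. The falls were 4 or 5 without any 1 chow library. In DKO 3 of 20 macrophage markers (15%) fell and none rose, beside 5.97% and 5.05% of all genes. Their median log2 fold change was -0.42, beside 0.02 over all genes. These falls were 1 without DKO replicate 3 or AMLN LiFKO replicate 3 and 2 without DKO replicate 2. In DKO also 1 endothelial marker (7.69% of the list) fell and 1 stellate marker (8.33%) rose, beside 5.97% and 5.05% of all genes. No hepatocyte or cholangiocyte marker was called in DKO. The summed level of the macrophage list, as log2, was 15.21 to 15.59 in chow LiFKO and 14.89 to 15.81 in Control libraries, and that of the hepatocyte list 21.77 to 22.17 in LiFKO and 22.40 to 22.45 in Control libraries. In whole liver, fewer cells of a type and less RNA per cell cannot be told apart, and the part of cell makeup in the RNA differences was not tested.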

How the data were processed

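TFE3 ChIP-seq and RNA-seq of mouse liver were used. Chow reads went through Trimmomatic 0.32, Bowtie2 2.2.8, SAMtools 1.7 and HOMER 4.11, and FPC reads through Trimmomatic 0.36, Bowtie2 2.2.6, SAMtools 0.1.19 and HOMER 4.4, per the submitters' processing notes, on build mm9. The deposited peak lists pool the libraries of a genotype and keep peaks found over input and over Tfe3KO ChIP, per the file headers. Their score is the authors' own and was used only to rank peaks within a list. Chow peaks span 186 bp. The RNA table holds deposited log2 values of 13815 genes, quantile normalized. STAR 2.6.0c, featureCounts and limma are named for it in the submitters' processing notes. Read totals are not in these values, so depth is unknown.

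Peaks sharing at least 1 bp counted as shared. Genes took peaks whose centre lay in the gene or within 5 kb of it, since the gene table has no strand. The RNA test used limma 3.58.1 (R 4.3.3; 1 mean per group over 5 groups, 15 libraries, trended variance), with Benjamini-Hochberg adjustment over all genes and a threshold of 0.05. The self-test on simulated data was passed. Peaks were handled in pandas 2.3.3 and scipy 1.17.1, under Python 3.11.15, and figures drawn in matplotlib 3.10.9. Residuals of same-numbered chow LiFKO and Control libraries correlated at 0.11, 0.17 and 0.24, over the limit of 0.1 set for pairing. Differently numbered chow libraries gave -0.19 to 0.04. Differently numbered AMLN DKO and LiFKO libraries gave -0.07 to 0.15 and so passed this limit in part. Whether the numbers pair the chow libraries is therefore not settled. The SE and p-values given above come from the fit without pairing, and the paired fit is an alternative. Alternatives changed the overlap, window, list length, fit, replicate block and the libraries used.

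The members and gene lists were chosen with earlier results of these data known. Genes were named by rule: the 5 best peaks of each class, up to 4 genes of each list with a peak and the smallest p on chow, the 8 largest rises and falls with a LiFKO-only peak and with peaks in both lists, up to 6 called genes with a Control-list peak alone, and a fixed set that includes Flcn, Tfe3 and their circuit. Tfec, Tsc1 and others came in through these lists.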

Additional observations from a re-analysis of the deposited data

How the results depend on the processing

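No called difference of a named gene changed sign when 1 library was left out, and the signs of other called genes were not checked. Of the 123 named genes, 4 on chow and 18 in DKO, 0 of them called, changed sign when 1 library was left out, among them Mitf (-0.56 to 0.15) and Tfec (-0.02 to 0.22) on chow and Acads (-0.13 to 0.03) and Tfe3 (-0.12 to 0.04) in DKO. Keeping the peaks above the median score of each list left 5762 LiFKO-only and 447 Control-only peaks, with 73.4% of the LiFKO peaks and 75.8% of the Control peaks kept within 5 kb of a gene. With lists of equal length 4453 peaks were specific to each, and 1709 genes had a LiFKO-list and 1004 a Control-list peak alone. Genes without a peak then rose on chow in 8.45% and fell in DKO in 3.03%, and those with a peak in both lists fell in DKO in 10.3%. A 20 kb window gave 15.5% risen and 8.18% fallen in DKO among genes with a peak in both lists. Counting peaks within 1 kb of a gene end, chosen after seeing the data, put 3265 genes in both lists, of which 11.1% fell in DKO, while genes without a peak rose in 9.83% and fell in DKO in 3.99%. Requiring an overlap of at least 0.5 of the shorter peak put 62.0% of shared, 37.7% of LiFKO-only and 44.4% of Control-only peaks in the FPC LiFKO list, and 30.6%, 7.09% and 32.5% in the FPC Control list. The cause of these moves was not tested.

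Leaving out 1 library gave 1385 to 1478 genes higher and 1308 to 1484 lower on chow, and 379 to 577 higher and 590 to 703 lower in DKO, with 379 without DKO replicate 2, 465 without DKO replicate 3 and 409 without AMLN LiFKO replicate 3. With a replicate block, chow gave 1670 higher and 1739 lower, and DKO 643 and 769. A block within each diet, chosen after seeing the data, gave 1799 and 1864 on chow and 787 and 860 in DKO. On chow the paired fit changed no call of a gene named in the report. AMLN numbers did not pair the libraries (residual correlations of same numbers -0.055, -0.079 and -0.085).

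The lists have no replicates and their depth is not given in the sources used here. The lowest score group of each chow list overlapped the other chow list and the FPC LiFKO list least. Overlap with the FPC Control list was lowest in group 2 of the LiFKO list (6.88%) and group 3 of the Control list (27.4%).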

Other observations

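All 17 measured clock genes had a LiFKO-list peak within 5 kb, as had 69.1% of all genes. On chow 4 (23.5%) fell and 1 (5.88%) rose in LiFKO against Control livers, beside 13.2% and 12.5% of all genes. There were 2 rises without Control replicate 1 and 4 without LiFKO replicate 3. Per3, a period gene with a LiFKO-only peak of score 25.4, had log2 levels of 10.25, 10.001 and 10.63 in chow LiFKO, against 11.55, 11.19 and 11.08 in Control libraries, with no overlap (-0.98, SE 0.16, limma adjusted p = 0.00053).

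Of 19 lipid droplet genes 16 had a LiFKO-list peak (84.2%, beside 69.1% of all genes). On chow 7 (36.8%) rose and 1 (5.26%) fell, beside 12.5% and 13.2% of all genes. The fall was lost without Control replicate 3, LiFKO replicate 1 or LiFKO replicate 2. In DKO 6 (31.6%) rose and 1 (5.26%) fell, beside 5.05% and 5.97% of all genes. The median was 0.51 on chow and 0.38 in DKO. The rises in DKO were 5 or 6 when any 1 DKO or AMLN LiFKO library was left out. Plin3, a droplet coat protein with 3 peaks in each list, had log2 levels of 12.85, 13.11 and 13.10 in chow LiFKO, against 11.29, 11.76 and 11.60 in Control libraries, with no overlap (1.47, SE 0.13, limma adjusted p = 2.3e-06). Of 20 genes of the integrated stress and endoplasmic reticulum stress responses 16 had a LiFKO-list peak (80%, beside 69.1% of all genes). On chow 3 rose and 3 fell, 15% each, beside 12.5% and 13.2% of all genes. The rises were 5 without LiFKO replicate 3, and the falls 1 without Control replicate 1, Control replicate 3 or LiFKO replicate 2. Eif2ak3, the gene of the stress kinase PERK, had 5 LiFKO-only peaks and no Control-list peak within 5 kb. Its log2 level was 11.12, 11.62 and 11.15 in chow LiFKO, against 9.72, 9.98 and 9.73 in Control libraries, with no overlap (1.49, SE 0.17, limma adjusted p = 2.3e-05).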
